A study of Mus musculus with 3 samples.

Results

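Short cassette exons, here skipped exons of 51 nt or less, were described in the hippocampus of 3 mice. They were taken from the skipped-exon tables of the 3 library pairs, with events matched by gene, chromosome, strand and all coordinates. Of 6532 skipped-exon events, 787 had an exon of 51 nt or less, 230 of them with an exon of 3-27 nt (microexons) and 557 with an exon of 28-51 nt. These 787 were also part of 8727 splicing events of 5 types. Several events can share an exon, so the 787 events held 217 distinct exons of 3-27 nt in 185 genes and 516 distinct exons of 28-51 nt in 479 genes. Each exon is described below by the event with the most reads, chosen by the smallest count over the 3 libraries.

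Microexons are too short to be recognised by the splicing machinery in the usual way and depend on nearby enhancer sequences and on dedicated factors. In neurons, SRRM4 promotes their inclusion, PTBP1 represses many of them in other cells, and RBFOX proteins act on part of the same set. Most add a few amino acids at the surface of a protein without shifting the reading frame, and their host genes are enriched in synaptic, adhesion, motor and vesicle functions. Expanded CUG repeats, the RNA of myotonic dystrophy type 1 (DM1), bind MBNL proteins, which are themselves splicing regulators of cassette exons.

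RNA-Seq was performed on total RNA of whole hippocampus from C57BL/6J wild-type mice labelled 10 weeks old, 1 mouse in each of 3 groups. CUG300 + CWG-cPIP and CUG300 + vehicle mice carried AAV9-CUG300, a serotype 9 adeno-associated virus with 300 CTG repeats in the untranslated end of Egfp mRNA, and received the cyclic pyrrole-imidazole polyamide CWG-cPIP or vehicle. The CUG10 + vehicle mouse carried AAV9-CUG10, the same construct with 10 repeats, and received vehicle. All 3 mice therefore had a virus and an injection into CA1, only transduced cells carry the repeat, and no uninjected mouse was included. Tissue was taken 10 days after gene transfer, and the promoter of the vector is not given in the sources used here. With 1 mouse per group there is no replicate check. Intervals cover counting error only, and a test on reads compares 2 libraries, not the conditions.

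Counts over all skipped exons were 445424 in CUG300 + CWG-cPIP, 476418 in CUG300 + vehicle and 491035 in CUG10 + vehicle, and short exons took 6.44%, 6.33% and 6.46% of them. The median short exon had 13 counts in CUG300 + CWG-cPIP, 7 in CUG300 + vehicle and 12 in CUG10 + vehicle. Cell markers differed between the libraries as well. In CPM, counts scaled to a common total over all splicing events with counts in the 3 libraries, the 9 measured neuron markers of 15 summed to 19066 in CUG300 + CWG-cPIP, 7346 in CUG300 + vehicle and 19278 in CUG10 + vehicle, and all 9 were lowest in CUG300 + vehicle. The 8 measured microglia and immune markers of 19 summed to 5033, 20078 and 2884 in the same order, and those of endothelium, mural cells and choroid plexus (4 of 15, mainly the choroid plexus gene Ttr) to 772, 71315 and 829. Astrocyte markers (2 of 10) summed to 994, 1416 and 533, and oligodendrocyte markers (5 of 15) to 9899, 7444 and 8962. All 8 microglia and immune markers were higher in CUG300 + vehicle than in CUG10 + vehicle. In the other lists the members were split. Higher there were Gfap but not Slc4a4 of the 2 astrocyte markers, and only Mag of the 5 oligodendrocyte markers. Of the 4 endothelial, mural and choroid plexus markers, Ttr and Enpp2 were higher, and Pecam1 and Pdgfrb lower. No measured marker was at 0 in a library. In these bulk samples fewer cells of a type and less RNA per cell cannot be told apart, and the part of cell composition in the results on short exons was not tested.

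The exons on which the results turn are printed below, because their length, frame and sequence define them. Exon bases are in capitals, and the bases in lower case are the last and first 10 of the neighbouring exons in the same GENCODE M21 transcript (GRCm38, the mm10 build), read 5′ to 3′ in the direction of transcription. The exons of Rps24 are shown without their neighbours.
Kif3a 9 nt, chr11:53590717-53590725, plus strand: ttcttgcctcACCAAGCAGgtaaaaagaa
Cadps 12 nt, chr14:12517804-12517815, minus strand: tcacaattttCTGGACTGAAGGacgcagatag
Dync1i2 18 nt, chr2:71227827-71227844, plus strand: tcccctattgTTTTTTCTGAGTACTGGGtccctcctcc
Rps24 18 nt, chr14:24494052-24494069, plus strand: AAATGAAATACCTAGCAG
Rps24 20 nt, chr14:24495430-24495449, plus strand: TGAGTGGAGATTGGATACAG
Aifm3 21 nt, chr16:17506899-17506919, plus strand: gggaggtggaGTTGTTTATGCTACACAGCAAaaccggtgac
Cadps 21 nt, chr14:12468346-12468366, minus strand: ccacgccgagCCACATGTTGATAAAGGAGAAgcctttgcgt
Kif1a 27 nt, chr1:93065552-93065578, minus strand: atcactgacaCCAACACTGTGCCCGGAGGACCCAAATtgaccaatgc
Nnat 27 nt, chr2:157561213-157561239, plus strand: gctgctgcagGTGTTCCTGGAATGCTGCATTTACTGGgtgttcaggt
Ppp3ca 30 nt, chr3:136932011-136932040, plus strand: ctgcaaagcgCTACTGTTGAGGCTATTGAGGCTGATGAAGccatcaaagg
Ppp3cb 30 nt, chr14:20503247-20503276, minus strand: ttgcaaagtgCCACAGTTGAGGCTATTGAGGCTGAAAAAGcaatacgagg
Luc7l2 30 nt, chr6:38598785-38598814, plus strand: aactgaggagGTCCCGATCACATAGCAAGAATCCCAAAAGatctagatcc
Clstn1 30 nt, chr4:149626087-149626116, plus strand: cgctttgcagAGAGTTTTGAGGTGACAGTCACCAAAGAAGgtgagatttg
Clta 36 nt, chr4:44031400-44031435, plus strand: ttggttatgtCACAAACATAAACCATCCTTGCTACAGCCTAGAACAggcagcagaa
Nrcam 36 nt, chr12:44578145-44578180, plus strand: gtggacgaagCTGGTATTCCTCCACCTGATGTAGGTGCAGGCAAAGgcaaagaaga
Ndrg4 39 nt, chr8:95712325-95712363, plus strand: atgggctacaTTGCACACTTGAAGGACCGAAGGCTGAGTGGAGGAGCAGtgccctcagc

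The 30-nt exons of Ppp3ca and Ppp3cb, the paralogous genes of calcineurin catalytic subunits, were identical at 26 of 30 bases (86.7%). The 9-nt exon of Kif3a and the 12-nt exon of Cadps are each a whole number of codons, as are all of those printed except the 20-nt exon of Rps24.

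Frame preservation went with shortness. Of the 217 exons of 3-27 nt, 185 (85.3%) had a length that is a multiple of 3, as did 311 of 516 (60.3%) of those of 28-51 nt and 2315 of 5166 (44.8%) of the skipped exons of 52-250 nt. No test was made of these shares, since exons of 1 gene share their transcript and reads. The commonest microexon lengths were 24 nt (41 exons), 27 nt (37 exons), 18 nt (33 exons) and 21 nt (28 exons). In the longer class they were 45 nt (48 exons), 39 nt (46 exons), 48 nt (44 exons) and 51 nt (42 exons). A single exon had 6 nt, the shortest length listed, in Nsmf, a gene of synapse-to-nucleus signalling. A length of 9 nt was found for 12 exons and of 12 nt for 16 exons.

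**Figure D1:**
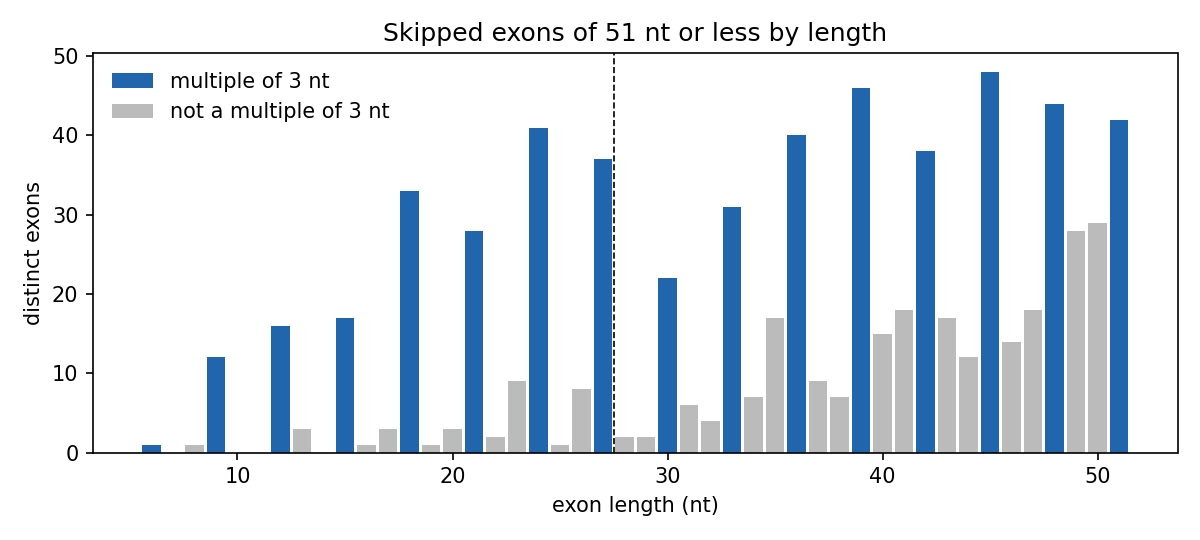
Number of distinct skipped exons at each length of 51 nt or less, with multiples of 3 nt in blue and other lengths in grey, and a dashed line between the 3-27 nt and 28-51 nt classes. The blue bars hold 185 of the 217 microexons, with peaks of 41 exons at 24 nt and 37 exons at 27 nt, while the grey bars hold at most 9 exons each below 28 nt and up to 29 exons, at 50 nt, above it.

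Short exons lay mainly within coding sequence. In the annotation 200 of 217 microexons (92.2%) and 422 of 516 exons of 28-51 nt (81.8%) were fully coding in a protein-coding transcript, against 83.7% of exons of 52-250 nt. Untranslated regions held 4 microexons and 34 exons of 28-51 nt, and 6 and 33 were partly coding. The annotation had no exon with the same ends for 4 microexons, among them a 9-nt exon of Ap1b1, and for 5 exons of 28-51 nt. Among coding exons with a length divisible by 3, the first base opened a codon in 74 of 175 microexons (42.3%), in 101 of 270 exons of 28-51 nt (37.4%) and in 1052 of 2021 exons of 52-250 nt (52.1%). The median GC content was 47.1%, 48.9% and 50.5% in these classes, and the last exon base was G in 82.6%, 79.1% and 79.1%.

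Inclusion was measured as percent spliced in (PSI), given here as a fraction of 0 to 1, the share of inclusion reads after both counts are divided by the effective length of their form. At least 20 counts in each of the 3 libraries were reached by 32 of 217 microexons (14.7%) and by 127 of 516 exons of 28-51 nt (24.6%), against 1860 of 5166 exons of 52-250 nt. Over the 32 microexons the median PSI was 0.949 in CUG300 + CWG-cPIP, 0.938 in CUG300 + vehicle and 0.953 in CUG10 + vehicle. Over the 127 longer ones it was 0.970, 0.972 and 0.974 in the same libraries. A PSI of at least 0.9 in all 3 libraries was found for 17 of the 32 microexons and 80 of the 127 exons of 28-51 nt, and a PSI of at most 0.1 in all 3 for 1 and 6. The other 14 and 41 exons were variable in at least 1 library, and 12 of those 14 and 29 of those 41 had a length divisible by 3. The PSI stayed within a range of 0.05 over the 3 libraries for 17 microexons and 80 exons of 28-51 nt, and it ranged over more than 0.15 for 5 and 14.

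**Figure D2:**
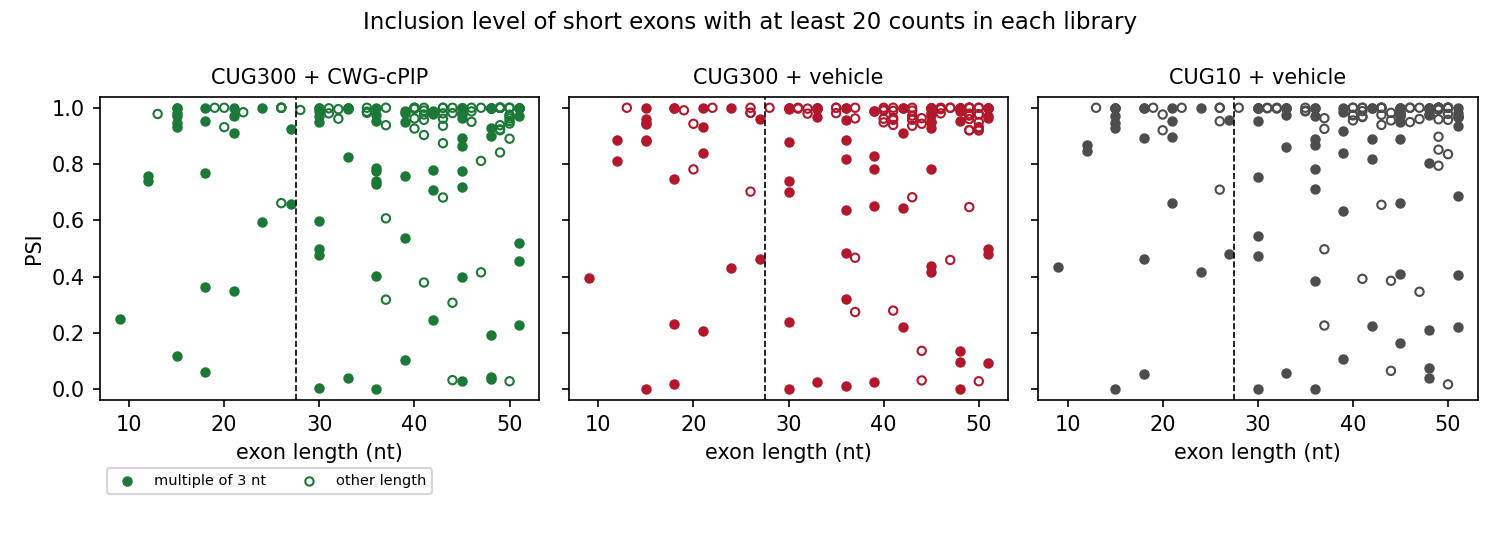
PSI of every exon of 51 nt or less with at least 20 counts in each library, plotted against exon length in nt for CUG300 + CWG-cPIP, CUG300 + vehicle and CUG10 + vehicle, with filled points for lengths divisible by 3 and open points for others. Most points lie near full inclusion in each library (medians of 0.938 to 0.974 by class), and 41 of the 55 exons that were neither high nor low in all 3 libraries are filled.

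The most deeply read microexons were close to full inclusion, with Rps24 apart. An 18-nt untranslated exon of Nrgn, which encodes the postsynaptic calmodulin-binding protein neurogranin, was included in 791 of 791 counts in CUG300 + CWG-cPIP, 1287 of 1287 in CUG300 + vehicle and 1547 of 1548 in CUG10 + vehicle. The 21-nt exon of Uqcrh, a subunit of respiratory complex III, had a PSI of 1.0, 0.998 and 1.0, and the 24-nt exon of 2010107E04Rik had the same 3 values. For Morf4l1 (26 nt), which encodes a chromatin complex subunit, Mrpl33 (19 nt), which encodes a mitochondrial ribosomal protein, and Suds3 (22 nt), which encodes a subunit of the SIN3 deacetylase complex, PSI lay between 0.982 and 1.0 in each library. They included lengths that do and do not preserve the frame.

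Rps24, which encodes a protein of the small ribosomal subunit, had 2 consecutive short exons that hold alternative stop codons in the annotation. Its 20-nt exon had 239 inclusion counts of 253 in CUG300 + CWG-cPIP, a PSI of 0.931 (95% Clopper-Pearson interval 0.887 to 0.961). In CUG300 + vehicle the exon had 1096 of 1338 counts and a PSI of 0.781 (0.756 to 0.804), and in CUG10 + vehicle 468 of 500 and 0.920 (0.889 to 0.945). The interval of CUG300 + vehicle lay below both others, which overlapped each other. The 18-nt exon just upstream was rarely used, with a PSI of 0.062 (0.034 to 0.105), 0.019 (0.011 to 0.031) and 0.053 (0.032 to 0.081), again lowest in CUG300 + vehicle. Over its splicing events with counts in the 3 libraries, which were those of these 2 exons, Rps24 had 755, 3604 and 1327 CPM. This total was highest where inclusion was lowest. It rests on the same reads as the PSI values, so it is no separate measure of the gene. What that level has to do with inclusion was not tested. Ribosomal protein genes have many processed copies in the genome, and how reads shared with copies were counted is not given in the sources used here.

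Among exons of 28-51 nt the deepest were also near 1. PSI was at least 0.98 in each library for Calm2 (31 nt, calmodulin), Gnas (45 nt, the stimulatory G protein alpha subunit), Uchl1 (48 nt, a neuronal ubiquitin hydrolase), Rps16 (48 nt) and Rpl17 (41 nt) of the ribosome, Mbp (33 nt, myelin basic protein) and Pfdn5 (32 nt, a prefoldin subunit). The exception was the 51-nt exon of Klc1, a kinesin light chain that links cargo to the motor, with a PSI of 0.455 (0.397 to 0.515) in CUG300 + CWG-cPIP, 0.499 (0.458 to 0.540) in CUG300 + vehicle and 0.404 (0.370 to 0.439) in CUG10 + vehicle. CUG300 + vehicle minus CUG10 + vehicle was 0.095 (95% Newcombe interval 0.042 to 0.147), and the two-sided Fisher exact test gave an unadjusted p of 0.000503, or 0.255 after Benjamini-Hochberg adjustment over all listed skipped-exon events. This is the deepest exon at the upper limit of length. Just outside it, the deepest 52-nt exon, in Tecr, had a PSI of 0.997, 0.983 and 0.996. On either side of the class boundary stood Git1 at 27 nt (0.926, 0.960 and 0.957) and Myl6 at 28 nt (0.992, 1.0 and 1.0), given in the same order of libraries.

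CUG300 + vehicle was compared with CUG10 + vehicle to see which short exons differ when the expanded repeat is expressed. An exon was counted where each library had at least 20 counts and the PSI difference exceeded 0.15. Of 29 microexons tested, 1 was higher and 2 were lower in CUG300 + vehicle, and of 114 exons of 28-51 nt, 4 were higher and 5 lower. Over both classes this was 3.50% higher and 4.90% lower, where all 1875 skipped exons tested gave 2.29% higher and 5.23% lower. The short exons were thus near this background in each direction. It includes the short exons themselves and those above 250 nt. The 1615 exons of 52-250 nt tested gave 1.86% higher and 4.09% lower, below the short exons in each direction. The median absolute difference was 0.0303 over short exons and 0.0371 over all. The median full width of the interval of a difference, from lower to upper bound, was 0.239 over short exons. Differences of the median size could therefore mostly not be told from 0 at this depth.

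The microexons past this size were in Aifm3, Dync1i2 and Kif3a. The 21-nt exon of Aifm3, which encodes a relative of apoptosis-inducing factor, had 5 inclusion counts of 20 in CUG300 + vehicle, a PSI of 0.206 (0.069 to 0.429), against 15 of 21 and 0.661 (0.417 to 0.860) in CUG10 + vehicle. The difference was -0.455 (-0.660 to -0.155), with an unadjusted exact p of 0.0048. The 18-nt exon of the dynein intermediate chain gene Dync1i2 was at 0.232 in CUG300 + vehicle and 0.463 in CUG10 + vehicle, a difference of -0.231 (-0.445 to 0.026). The 9-nt exon of Kif3a, a kinesin-2 motor subunit, was at 0.255 in CUG300 + vehicle and 0.084 in CUG10 + vehicle, with a difference of 0.171 (-0.006 to 0.337). Only the interval of Aifm3 excluded 0 among these 3.

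In the longer class, Nrcam had the difference farthest from 0. Its 36-nt exon, in a gene of an L1-type axonal adhesion molecule, had 14 of 24 counts in CUG300 + vehicle and a PSI of 0.485 (0.280 to 0.703), against 29 of 32 and 0.867 (0.668 to 0.971) in CUG10 + vehicle. The difference was -0.382 (-0.586 to -0.114), with an unadjusted exact p of 0.0089 and an adjusted p of 1.0. The 30-nt exon of Luc7l2, a splicing factor of the U1 particle, was lower by the same measure at 0.24 in CUG300 + vehicle against 0.473 in CUG10 + vehicle, a difference of -0.233 (-0.410 to -0.015). A 44-nt exon of Cldnd1, annotated as non-coding or in a transcript subject to decay, was at 0.136 in CUG300 + vehicle and 0.385 in CUG10 + vehicle (difference -0.250, -0.475 to -0.004).

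Higher inclusion in CUG300 + vehicle was found for a 45-nt exon of Tmem134 (0.415 against 0.164 in CUG10 + vehicle, difference 0.251, 0.029 to 0.447) and a 41-nt exon of Dtnb (0.828 against 0.544, difference 0.284, 0.009 to 0.521). Dtnb encodes the dystrobrevin beta of the dystrophin complex, but both exons are annotated as non-coding or in a transcript subject to decay. The Dtnb exon had 20 counts in CUG10 + vehicle. The differences of Puf60 (51 nt, -0.207), Tpd52l2 (42 nt, -0.173), Clstn1 (30 nt, 0.195) and Sap30bp (48 nt, 0.152) had intervals that included 0. Altogether 6 of the 12 intervals excluded 0, where 40 of the 141 past size among all skipped exons tested did. These exons were picked by the size of their difference, so the intervals are no separate support. Interval and exact test did not always go together. The unadjusted exact p was 0.0318 for Tmem134, but 0.0541 for Luc7l2, 0.0958 for Cldnd1 and 0.0769 for Dtnb.

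None of 502 listed short exons passed the exact test with size in this comparison, meaning an adjusted p below 0.05 with a PSI difference above 0.15, where all listed skipped exons gave 0.0691%. Fisher's exact test had an unadjusted p below 0.05 for 17 of the 502, where all listed skipped exons gave 2.0%. The 20-nt exon of Rps24 passed the adjustment alone, with -0.139 (-0.173 to -0.101; adjusted exact p = 7.33e-08), just under the size. A further event of the 36-nt exon of Clta, a clathrin light chain, passed both, in which the exon is spliced to a more distant upstream exon. Its PSI there was 0.402 (0.312 to 0.50) in CUG300 + vehicle and 0.695 (0.586 to 0.792) in CUG10 + vehicle, with an adjusted exact p of 0.041, and 0.526 (0.420 to 0.632) in CUG300 + CWG-cPIP. The deeper event of the same exon, spliced to the nearer exon, gave 0.819 in CUG300 + vehicle and 0.782 in CUG10 + vehicle.

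**Figure D3:**
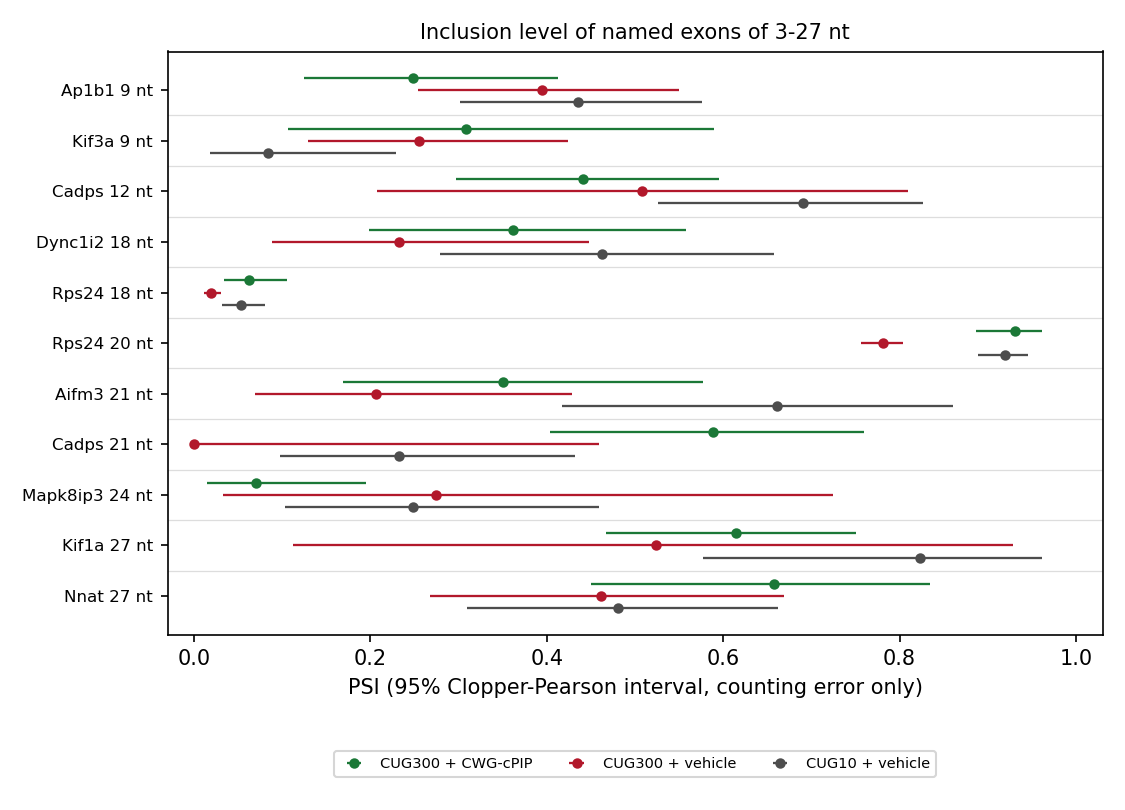
PSI of the named microexons, from 9 to 27 nt, in CUG300 + CWG-cPIP (green), CUG300 + vehicle (red) and CUG10 + vehicle (grey), with bars for the 95% Clopper-Pearson interval of counting error. The intervals are wide and mostly overlap, except for both exons of Rps24, of which the 20-nt exon stands at 0.781 in CUG300 + vehicle, below 0.931 and 0.920 in the others.

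CUG300 + CWG-cPIP was compared with CUG300 + vehicle to see which short exons differ when the polyamide is given in the presence of the expanded repeat. This comparison shares its CUG300 + vehicle library with the one above. Of 30 microexons tested, 2 were higher and 0 lower in CUG300 + CWG-cPIP. Of 111 exons of 28-51 nt, 5 were higher and 6 lower. Over both classes these were 4.96% higher and 4.26% lower, where all 1868 skipped exons tested gave 5.78% higher and 2.09% lower. The 1594 exons of 52-250 nt among them gave 4.45% higher and 1.51% lower. The median absolute difference was 0.0360 over short exons and 0.0393 over all.

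Ppp3ca had the clearest difference among exons of 28-51 nt. The gene encodes the alpha catalytic subunit of calcineurin, the calcium-dependent phosphatase abundant in hippocampal neurons, and its 30-nt exon is exon 13 of 14. It had 269 inclusion counts of 461 in CUG300 + CWG-cPIP and a PSI of 0.499 (0.452 to 0.547), 225 of 294 and 0.699 (0.638 to 0.755) in CUG300 + vehicle, and 401 of 494 and 0.754 (0.710 to 0.795) in CUG10 + vehicle. CUG300 + CWG-cPIP was the library set apart, and the intervals of the other two overlapped. CUG300 + CWG-cPIP minus CUG300 + vehicle was -0.20 (-0.270 to -0.124; adjusted exact p = 0.000246). The matching 30-nt exon of Ppp3cb was at 0.988, 1.0 and 1.0 in the same 3 libraries, from 80 or more counts in each.

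The 39-nt exon of Ndrg4, a member of the N-myc downstream-regulated family expressed in brain, was the other short exon that passed the exact test with size. Inclusion was 500 of 518 counts in CUG300 + CWG-cPIP, a PSI of 0.948 (0.919 to 0.969), 99 of 117 and 0.783 (0.684 to 0.864) in CUG300 + vehicle, and 434 of 459 and 0.919 (0.884 to 0.947) in CUG10 + vehicle. Here CUG300 + vehicle was the lowest library, with no overlap of its interval with the others. CUG300 + CWG-cPIP minus CUG300 + vehicle was 0.165 (0.087 to 0.263; adjusted exact p = 0.00537), and CUG300 + vehicle minus CUG10 + vehicle was -0.136 (-0.236 to -0.056), with an unadjusted exact p of 0.00115 and an adjusted p of 0.476. Its 48-nt exon was at 1.0, 0.987 and 0.997. Over all its splicing events Ndrg4 had 3250, 738 and 2681 CPM, lowest in the library with the lowest neuron markers, and the part of this in the difference was not tested.

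These 2 of 535 listed short exons compare with 0.192% of all listed skipped exons. An unadjusted exact p below 0.05 was found for 22 of the 535, against 2.61% of all listed skipped exons. The 20-nt exon of Rps24 was again at the limit, 0.15 higher in CUG300 + CWG-cPIP (0.101 to 0.187; adjusted exact p = 8.16e-05). The 45-nt exon of Tmem134, annotated as non-coding or in a transcript subject to decay, had 1 of 21 counts in CUG300 + CWG-cPIP and 16 of 30 in CUG300 + vehicle, a PSI of 0.030 against 0.415, and a difference of -0.385 (-0.561 to -0.187). Its adjusted exact p was 0.0814, and it was 0.0347 when the adjustment ran over only those events that reached the 20-count minimum.

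Further exons past size had fewer reads. Luc7l2 was at 0.596 (0.478 to 0.708) in CUG300 + CWG-cPIP and 0.24 (0.106 to 0.433) in CUG300 + vehicle, a difference of 0.356 (0.147 to 0.512) with an unadjusted exact p of 0.00129. A 49-nt untranslated exon of Gnb1, a G protein beta subunit gene, was at 0.841 and 0.647, with a difference of 0.194 (0.050 to 0.332). Clstn1, which encodes the synaptic membrane protein calsyntenin-1, was lower, at 0.477 against 0.740, with a difference of -0.263 (-0.431 to -0.028). The intervals of Nrcam (0.256), Cldnd1 (0.171), Dnm1l (33 nt, -0.175), Usf2 (47 nt, -0.189) and Asph (45 nt, -0.173) included 0. So did that of the 27-nt microexon of Nnat, which encodes neuronatin, at 0.658 in CUG300 + CWG-cPIP and 0.461 in CUG300 + vehicle.

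**Figure D4:**
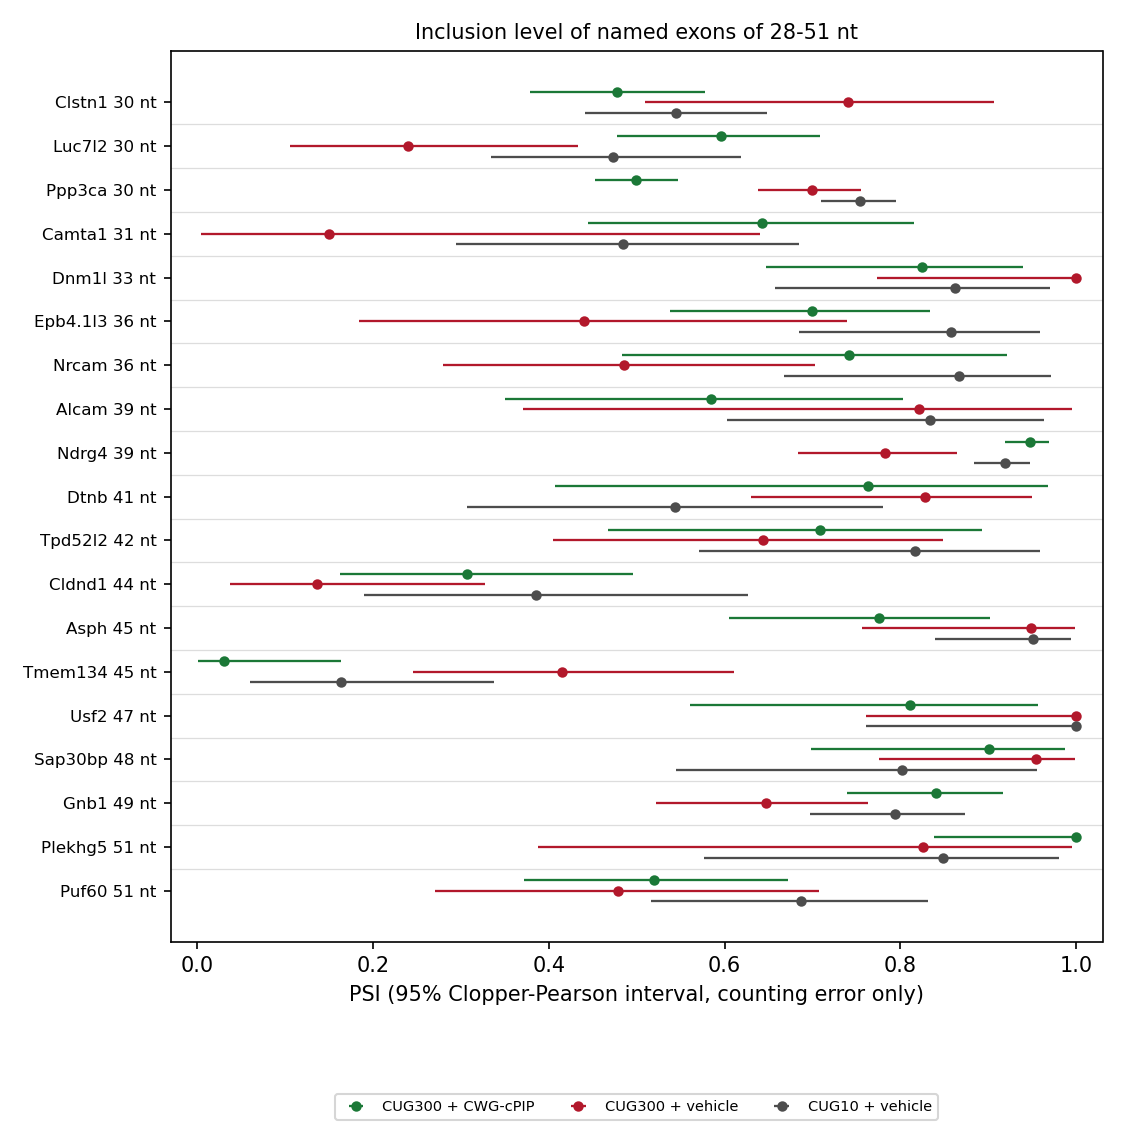
PSI of the named exons of 28-51 nt in CUG300 + CWG-cPIP (green), CUG300 + vehicle (red) and CUG10 + vehicle (grey), with bars for the 95% Clopper-Pearson interval of counting error. Ppp3ca 30 nt is set apart in CUG300 + CWG-cPIP at 0.499, and Ndrg4 39 nt in CUG300 + vehicle at 0.783, while most of the remaining exons have wider, overlapping intervals.

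CUG300 + CWG-cPIP was also set against CUG10 + vehicle as the third pair, which shares a library with each of the comparisons above. Of 52 microexons tested, 3 were higher and 5 lower in CUG300 + CWG-cPIP, and of 159 exons of 28-51 nt, 2 were higher and 6 lower. Over both classes these were 2.37% higher and 5.21% lower, where all 2261 skipped exons tested gave 4.07% higher and 2.87% lower. The 1902 exons of 52-250 nt among them gave 3.94% higher and 2.16% lower. The median absolute difference was 0.0398 over short exons and 0.0438 over all.

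Cadps, which encodes the vesicle priming factor CAPS1, held 2 of the 8 microexons, and their differences had opposite signs. The 21-nt exon had 22 of 34 counts in CUG300 + CWG-cPIP, a PSI of 0.588 (0.404 to 0.760), against 7 of 25 and 0.232 (0.097 to 0.432) in CUG10 + vehicle, a difference of 0.356 (0.106 to 0.548) with an unadjusted exact p of 0.00821. The 12-nt exon had 22 of 46 counts and 0.441 (0.297 to 0.595) in CUG300 + CWG-cPIP, against 31 of 43 and 0.690 (0.526 to 0.826) in CUG10 + vehicle, a difference of -0.249 (-0.428 to -0.040) with an unadjusted exact p of 0.0302. In CUG300 + vehicle these exons had only 5 and 11 counts. The 33-nt exon of Cadps was at 1.0 in CUG300 + CWG-cPIP and 0.976 in CUG10 + vehicle.

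A 24-nt exon of Mapk8ip3, a scaffold of JNK kinases and motors, was at 0.070 in CUG300 + CWG-cPIP and 0.248 in CUG10 + vehicle, with a difference of -0.178 (-0.374 to -0.005). Aifm3 was at 0.350 in CUG300 + CWG-cPIP and 0.661 in CUG10 + vehicle. The difference was -0.310 (-0.542 to -0.010), with an unadjusted exact p of 0.0666. The intervals of Nnat (0.177), of Kif1a (27 nt, -0.208), a motor of synaptic vesicle precursors, and of the AP-1 adaptor gene Ap1b1 (9 nt, -0.186) included 0.

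In the longer class Ppp3ca led again. CUG300 + CWG-cPIP minus CUG10 + vehicle was -0.255 (-0.316 to -0.191; adjusted exact p = 6.4e-11), and it was the sole short exon of 631 listed that passed the exact test with size, where all listed skipped exons gave 0.0206%. An unadjusted exact p below 0.05 was found for 12 of the 631, near the 1.59% of all listed skipped exons. The 45-nt exon of Asph, the aspartate beta-hydroxylase locus, was at 0.776 (0.605 to 0.902) in CUG300 + CWG-cPIP and 0.951 (0.839 to 0.994) in CUG10 + vehicle, with a difference of -0.175 (-0.343 to -0.021). The others past size had intervals that included 0, namely Alcam (39 nt, -0.250), Usf2 (-0.189), Puf60 (-0.166) and Epb4.1l3 (36 nt, -0.159), which were lower, and Camta1 (31 nt, 0.159) and Plekhg5 (51 nt, 0.151), which were higher.

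**Figure D5:**
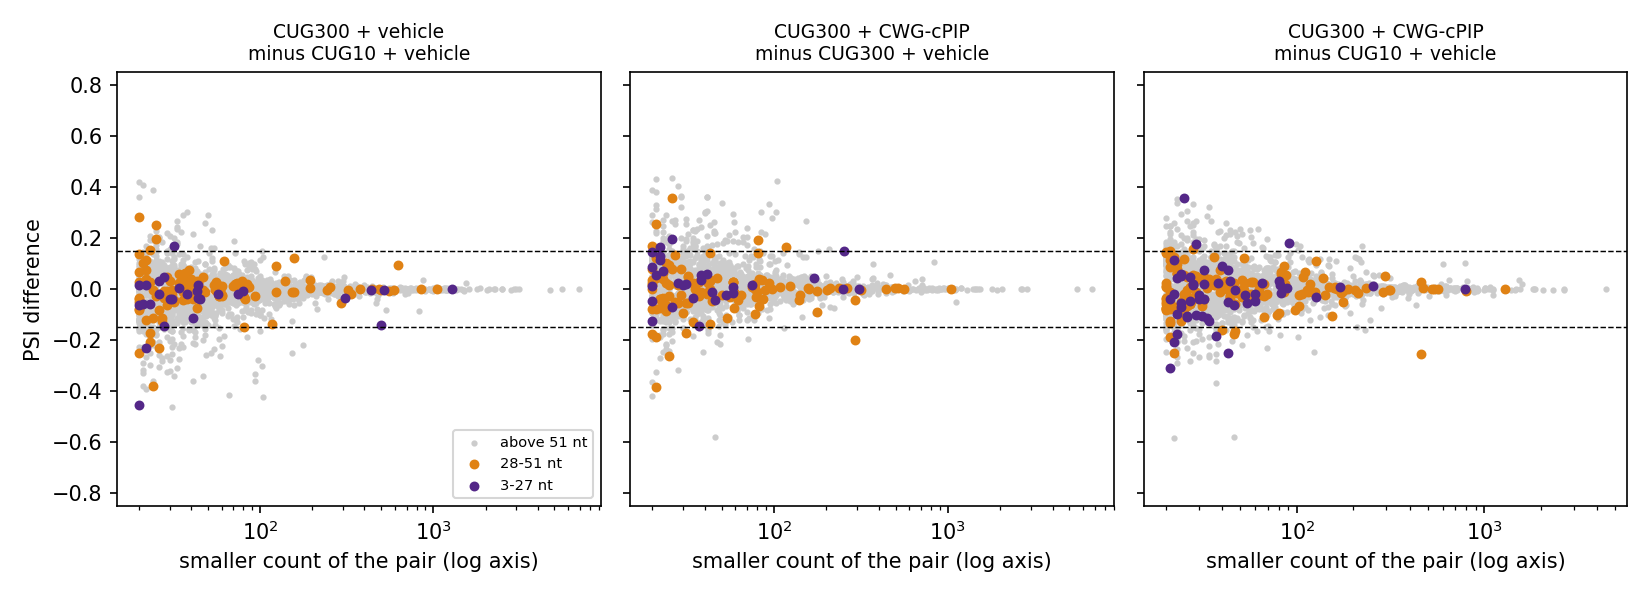
PSI difference of every skipped exon with at least 20 counts in each library, against the smaller of the pair's counts on a log axis, for the 3 library pairs, with exons of 3-27 nt in purple, 28-51 nt in orange and longer ones in grey, and dashed lines at 0.15 and -0.15. The short exons outside the dashed lines had low counts, the largest smaller counts being those of Ndrg4 39 nt (117 counts) and Ppp3ca (294 and 461 counts).

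Gene lists were described by counts and medians. As background for the counts, 7.52% of all skipped exons tested were past size in either direction in CUG300 + vehicle minus CUG10 + vehicle, 7.87% in CUG300 + CWG-cPIP minus CUG300 + vehicle and 6.94% in CUG300 + CWG-cPIP minus CUG10 + vehicle. With so few members tested in each list, nothing particular to a list is read from its counts. Of 96 genes known for neural microexons, 43 had a short exon here, with 52 microexons and 16 exons of 28-51 nt, but only 5 of these 68 had 20 counts in all 3 libraries. Past size were 1 of 6 in CUG300 + vehicle minus CUG10 + vehicle (Nrcam, lower), 2 of 4 in CUG300 + CWG-cPIP minus CUG300 + vehicle (both higher, Nrcam among them) and 4 of 16 in CUG300 + CWG-cPIP minus CUG10 + vehicle (3 higher, among them Camta1 and Cadps 21 nt, and Cadps 12 nt lower). Median absolute differences were 0.0310, 0.0910 and 0.0522, where all skipped exons had 0.0371, 0.0393 and 0.0438. Among the 52 genes listed as DM1 or MBNL targets, 22 had 38 short exons, and the one past size was Ndrg4 39 nt, of 5 tested in CUG300 + CWG-cPIP minus CUG300 + vehicle, with 0 of 6 in CUG300 + vehicle minus CUG10 + vehicle and 0 of 11 in CUG300 + CWG-cPIP minus CUG10 + vehicle. Its median absolute differences were 0.0440, 0.0305 and 0.0299 in these 3 comparisons.

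Functional lists had few deep members, and their counts stand beside the same background of 7.52%, 7.87% and 6.94%. Cytoskeleton and motor genes (29 of 70 listed with a short exon, 52 short exons) had more short exons than the other functional lists, which differ in size. Of the short exons tested in this list, 2 of 9, 1 of 8 and 2 of 15 were past size in the 3 comparisons taken in the order above. For presynaptic release and endocytosis (23 genes, 36 short exons) these were 1 of 7, 0 of 7 and 2 of 16. Calcium signalling kinases and phosphatases (22 genes, 24 exons) had 0 of 5, 1 of 5 and 1 of 9, each time Ppp3ca. For RNA-binding, splicing and translation factors (24 genes, 29 exons) they were 1 of 10, 1 of 12 and 0 of 13, each time Luc7l2. Adhesion and axon guidance receptors (13 genes, 23 exons) had 1 of 1, 1 of 1 and 0 of 2, and transcription and chromatin genes (9 genes, 10 exons) 0 of 1 in the last comparison and none tested in the others.

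List members that were read deeply but stayed under the size included Camk2b, Clta, Dnm1, Srsf7 and Rbfox1. The 45-nt exon of Camk2b, a subunit of the calcium and calmodulin-dependent kinase, was at 0.864 (0.802 to 0.913) in CUG300 + CWG-cPIP, 1.0 (0.874 to 1.0) in CUG300 + vehicle and 0.969 (0.913 to 0.993) in CUG10 + vehicle. Its CUG300 + CWG-cPIP minus CUG10 + vehicle difference was -0.105 (-0.170 to -0.034), with an unadjusted exact p of 0.0046 and an adjusted p of 1.0. The 37-nt exon of dynamin 1 (Dnm1), which holds a stop codon, was at 0.607, 0.467 and 0.497, and the 36-nt exon of the SR protein gene Srsf7 at 0.787, 0.884 and 0.890. The 15-nt exons of Abi1, Dctn1 and Sptan1, in regulators of actin, dynein and the spectrin skeleton, were at 0.928 or more in each library.

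The factors that act on microexons were examined through their own exons of any length. Of 18 such genes, 13 had a skipped exon, 25 exons in all. With 20 counts in each library, 0 of 7 exons were past size in CUG300 + vehicle minus CUG10 + vehicle, 0 of 6 in CUG300 + CWG-cPIP minus CUG300 + vehicle and 0 of 10 in CUG300 + CWG-cPIP minus CUG10 + vehicle. Fisher's exact test had an unadjusted p below 0.05 for 0 of the exons tested in each comparison. All skipped exons tested gave 7.52%, 7.87% and 6.94% past size, and 2.0%, 2.61% and 1.59% of those listed had such a p. With so few exons tested, counts of 0 are not set apart from that background, and nothing about the factors is read from them. The exons with 20 counts in all 3 libraries lay in Mbnl2, Rbfox1, Rbfox3 and Rnps1. The 40-nt exon of Rbfox1 was at 0.926 (0.824 to 0.979), 0.948 (0.750 to 0.999) and 0.955 (0.849 to 0.994) in CUG300 + CWG-cPIP, CUG300 + vehicle and CUG10 + vehicle. The 36-nt exon of Mbnl1, named after its values were seen, had 10, 1 and 2 counts, too few for a comparison.

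Several genes carried more than 1 short exon. Of the 640 host genes, 71 had 2 or more, led by Clasp2 with 6 and Synj1 with 5, followed by Cadps, Kif21a, Spag9 and Trim9 with 4 each. Neighbouring exons of 1 gene were included at different levels in the examples below, which were picked after their values were seen. In Clasp2, which encodes a microtubule plus-end protein, a 27-nt exon had 0 inclusion counts of 20 in CUG300 + CWG-cPIP and a PSI of 0.041 in CUG10 + vehicle, while the 24-nt exon farther along was at 0.858 and 0.831. In Kif1a the 24-nt and 27-nt exons downstream of the one named above were at 0.335 and 0.216 in CUG300 + CWG-cPIP, against 0.390 and 0.053 in CUG10 + vehicle. Spag9, a scaffold related to Mapk8ip3, had a 12-nt exon at 0.311 and 0.292 and a 15-nt exon at 0.077 and 0 in the same 2 libraries. In CUG300 + vehicle these exons had 3 counts or fewer, or were not listed, so that no level is set beside them.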

How the data were processed

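Total RNA of whole hippocampus from 3 mice, 1 per group, was sequenced with a directional library kit. Per the labels and the methods of the study, the authors trimmed reads with Trim Galore 0.6.6, aligned them to mm10 with STAR 2.7.9a, and deposited rMATS tables for 3 library pairs and 5 event types. RSEM 1.3.3 and DESeq2 1.36.0 were used by the authors for gene expression, which was not analysed here. The deposited inclusion and skipping counts are raw counts of reads on junctions and in the exon. The deposited inclusion level is a fraction that the authors made from these counts and the effective length of each form, 74 nt for skipping and the exon length plus 74 nt for inclusion. These form lengths correspond to shorter reads than the paired-end reads that the methods of the study state for splicing analysis. The difference was not resolved, and PSI depends on these lengths. Levels recomputed from the counts differed from it by at most 0.0005. The authors' own p-values, adjusted p-values and level differences were not used. The tables list no event with both levels at 0 or both at 1, so fully constant exons are missing from a pair.

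Each exon was represented by the event with the largest smallest count over the libraries. Counting intervals (95%) of PSI were computed by the Clopper-Pearson method on the counts, and their bounds were then length-normalised. Differences have a Newcombe interval. A difference was past size where both libraries had 20 counts or more and PSI differed by more than 0.15. Fisher's exact test (two-sided) was adjusted by Benjamini-Hochberg over all listed skipped-exon events of the pair, with scipy 1.17.1, and was tested on simulated data. Reads carry no molecular identifiers, so intervals cover counting error only. Exons were matched to GENCODE M21 by their ends. Named exons were up to 12 past size per pair and class, those passing the exact test, the 8 deepest per class, those next to the length limits, and up to 4 per gene list. The exons and gene lists were chosen with earlier results of these data known. Alternatives were other count minimums, sizes, adjustments, raw shares and all events. 1 named exon and 1 gene list are not reported here. Intron sequence was not analysed here.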

Additional observations from a re-analysis of the deposited data

Results flagged for a closer look

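The 6-nt exon of Nsmf, which encodes a messenger between synapse and nucleus, was also deposited as a mutually exclusive event with a 69-nt exon, in tables that the comparisons above do not use. Its share of the event was 0.375 (95% Clopper-Pearson interval 0.293 to 0.461) of 171 counts in CUG300 + CWG-cPIP. It was 0.188 (0.097 to 0.311) of 87 counts in CUG300 + vehicle and 0.153 (0.092 to 0.233) of 174 counts in CUG10 + vehicle. CUG300 + CWG-cPIP minus CUG10 + vehicle was 0.222 (Newcombe interval 0.113 to 0.322), and CUG300 + CWG-cPIP minus CUG300 + vehicle was 0.187 (0.045 to 0.302). The event was picked from 17 with a short exon and at least 20 counts in each library. The rule was a difference from CUG10 + vehicle above 0.15 with an interval that excluded 0. The interval of 0.113 to 0.322 is therefore no separate support. As a skipped exon it had a PSI of 1.0, 0.822 and 0.925 in CUG300 + CWG-cPIP, CUG300 + vehicle and CUG10 + vehicle, from 69, 12 and 43 counts. Its share of the event is thus not its level of inclusion. With 1 mouse per group there is no replicate check.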

How the results depend on the processing

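No paired analysis was possible because each group has 1 library and the labels carry no replicate pairing. In the order CUG300 + vehicle minus CUG10 + vehicle, CUG300 + CWG-cPIP minus CUG300 + vehicle and CUG300 + CWG-cPIP minus CUG10 + vehicle, 12, 13 and 16 short exons were past size. They were 8.39%, 9.22% and 7.58% of the short exons tested, where all skipped exons tested gave 7.52%, 7.87% and 6.94%. With a minimum of 10 counts the numbers past size were 34, 34 and 48, with 50 counts 0, 3 and 2, and with no minimum 234, 242 and 266. A size above 0.1 gave 26, 27 and 39, and one above 0.2 gave 4 in the second comparison and 6 in the third. Numbers tested and shares over all skipped exons were not computed at these other minimums and sizes. Where the interval of the difference also had to exclude 0, 6, 6 and 7 short exons remained. All skipped exons tested gave 40, 45 and 37 under that rule, of 141, 147 and 157 past size. By the exact test 0, 2 and 1 were called. In the first comparison this was 1 with a size above 0.1, 1 with no size threshold and 1 over all events, and unadjusted p-values gave 10, 19 and 11. Median absolute differences of 0.0303, 0.0360 and 0.0398 became 0.0477, 0.0565 and 0.0579 at 10 counts, 0.0143, 0.0216 and 0.020 at 50 counts, and 0.0196, 0.0243 and 0.0284 on raw inclusion shares. The median PSI of microexons at 50 counts was 1.0 in CUG300 + CWG-cPIP and 0.998 in CUG300 + vehicle, and that of 28-51 nt exons in CUG10 + vehicle was 0.960 at 10 counts and 0.987 at 50 counts. Depth limits most short exons, since 159 of 733 reached 20 counts in all 3 libraries.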

Other observations

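Short exons were also found among mutually exclusive exons, where 1 of a pair is used. Of 422 such events, 89 had an exon of 51 nt or less, 77 of them with an exon also listed as a short skipped exon, and 17 had at least 20 counts in each library. The examples that follow were chosen after their values were seen. The 32-nt exon of Pfdn5, paired with a 103-nt exon, had a share of 0.524 (0.471 to 0.576) in CUG300 + CWG-cPIP, 0.668 (0.631 to 0.703) in CUG300 + vehicle and 0.620 (0.579 to 0.660) in CUG10 + vehicle. CUG300 + CWG-cPIP minus CUG300 + vehicle was -0.144 (-0.206 to -0.081). As a skipped exon it was at 0.995 or more in each library, so its share of the event is not its level of inclusion. The 37-nt exon of Fxyd1, which encodes a regulator of the sodium pump, had a share of 0.548 in CUG300 + CWG-cPIP, 0.357 in CUG300 + vehicle and 0.477 in CUG10 + vehicle against a 75-nt exon. CUG300 + CWG-cPIP minus CUG300 + vehicle was 0.191 (0.031 to 0.340) there. As a skipped exon the 37-nt exon had a PSI of 1.0 in CUG300 + CWG-cPIP, 1.0 in CUG300 + vehicle and 0.925 in CUG10 + vehicle.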
